A study of Mus musculus with 6 samples.

Results

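Complement genes outside C1q were followed in PM, primary microglia shaken off mixed glial cultures, which were prepared from pooled brains of ICR mice at postnatal day 3. The 9 genes, C3, C4b, Cfb, Cfp, C3ar1, C5ar1, C1ra, Serping1 and Cd55, were taken by symbol from a table of 24411 genes, and all 9 were found. They comprise components (C3, C4b, Cfb, Cfp, C1ra), receptors (C3ar1, C5ar1) and regulators (Serping1, Cd55). GSK-J4 (10 μM) alone was given in 3 libraries, and LPS (10 ng/ml) together with GSK-J4 (10 μM) in the other 3, each at 4-h. LPS is a bacterial cell wall product sensed by Toll-like receptor 4, and GSK-J4 inhibits demethylases of histone H3 lysine 27, JMJD3 among them. Both groups carried the inhibitor, so each comparison addresses the response to LPS in its presence. Untreated PM and PM with LPS alone were not analysed here. The study's methods call the libraries of a treatment biological replicates from independent samples, while brains were pooled for culture and the labels do not say which cultures the libraries came from. The p values cover the spread between these libraries.

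Complement is a cascade of plasma and locally made proteins in which the classical, lectin and alternative pathways meet at C3. Cleavage of C3 leaves an opsonin on targets, which phagocytes bind through the integrin complement receptors, and releases a small peptide sensed by the C3a receptor. Cleavage of C5 downstream releases the ligand of the C5a receptor, a chemoattractant receptor of myeloid cells. In the brain, microglia make C1q and carry the receptors, and complement is known for the tagging of synapses for removal.

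In these libraries the C5a receptor gene C5ar1 rose to 3.56 times its level with GSK-J4 alone (95% interval, 2.96 to 4.29). The components C3 and Cfp fell to 0.712 and 0.654 times (95% intervals, 0.580 to 0.875 and 0.518 to 0.826). C3ar1, Cfb and Serping1 did not pass the test. C4b, C1ra and Cd55 had too few fragments to be tested. A gene is said here to have risen or fallen where the adjusted p of edgeR's quasi-likelihood test, over 10133 genes, was 0.05 or lower. A large change also needs an adjusted p no higher than 0.01 and a log2 fold change of 1.5 or more, up or down. Of the 6 complement genes tested, 1 rose and 2 fell. Of all genes tested, 13.7% rose and 9.91% fell. C5ar1 also passed the large-change threshold, as did 2.95% of all genes upward, and no tested gene of the 9 changed largely downward, as 0.809% of all genes did. The median log2 fold change was 0.09 over the 6 complement genes and -0.00064 over all genes tested.

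The stretches before the RefSeq start sites of the 3 genes that passed the test and of C3ar1, the receptor measured beside C5ar1, are shown to place these genes in the genome. They are RefSeq sequences of GRCm38.p6, the assembly also called mm10, printed from 5′ to 3′ on the gene's strand and ending at or near that start site. For C5ar1, GENCODE also lists transcripts that begin farther upstream, at 16259540, so its stretch lies before the RefSeq start and within the first intron of those transcripts. A match to any of 5 motifs, searched on both strands over the 250 bases before the RefSeq start site, is in capitals, and overlapping matches run together. The motifs were GGG and CC separated by any 5 bases for NF-kB, TTC and GAA separated by any 3 bases for STAT, a pair of GAAA separated by any 2 bases for interferon regulatory factors, TTGC and AA separated by any 2 bases for C/EBP, and TGANTCA for AP-1.
C5ar1, chr7:16259339-16259512, minus strand: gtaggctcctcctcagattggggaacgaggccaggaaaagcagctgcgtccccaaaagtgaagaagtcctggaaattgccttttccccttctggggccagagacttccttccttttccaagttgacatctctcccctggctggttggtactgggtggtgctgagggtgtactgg
C3ar1, chr6:122856162-122856407, minus strand: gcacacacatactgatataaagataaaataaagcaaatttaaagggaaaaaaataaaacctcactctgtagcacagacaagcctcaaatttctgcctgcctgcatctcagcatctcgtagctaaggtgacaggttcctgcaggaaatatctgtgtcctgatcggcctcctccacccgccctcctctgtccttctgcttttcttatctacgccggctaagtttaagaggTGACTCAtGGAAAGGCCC
C3, chr17:57228137-57228386, minus strand: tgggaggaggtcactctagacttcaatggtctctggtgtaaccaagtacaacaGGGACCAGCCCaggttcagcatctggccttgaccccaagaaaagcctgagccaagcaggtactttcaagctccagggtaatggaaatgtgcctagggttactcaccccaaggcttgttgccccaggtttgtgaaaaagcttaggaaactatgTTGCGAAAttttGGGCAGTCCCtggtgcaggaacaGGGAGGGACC
Cfp, chrX:20931556-20931805, minus strand: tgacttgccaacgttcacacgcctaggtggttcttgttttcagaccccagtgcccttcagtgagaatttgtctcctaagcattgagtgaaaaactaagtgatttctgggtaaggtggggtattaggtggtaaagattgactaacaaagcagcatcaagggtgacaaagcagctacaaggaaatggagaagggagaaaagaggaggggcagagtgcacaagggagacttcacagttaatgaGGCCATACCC

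The printed stretch is 174 bases long for C5ar1 and 246 for C3ar1, since the other 76 and 4 bases of the window hold, or lie beyond, an annotated exon. The 250 bases before the RefSeq start of C5ar1, those not printed included, held no match to any of the 5 motifs. Those before C3 held 4 NF-kB letter matches, the first pair overlapping, which begin at positions -197, -196, -33 and -10 from the start, and a C/EBP match at -45. C3ar1 had an AP-1 match at -22 and an NF-kB match at -14, and Cfp an NF-kB match at -10. Of 32851 RefSeq promoter stretches of this length, 45.8% held the NF-kB letters, 9.56% the C/EBP letters and 6.75% the AP-1 letters. The STAT and interferon regulatory factor letters, in 7.02% and 2.98% of the stretches, were in none of the 6 complement genes with an entry, each searched over its full 250 bases. For C1ra, 216 of these lie in or beyond an exon that GENCODE annotates. A match describes letters only. C4b, Cfb and Serping1 had no entry.

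The libraries held 2597505 to 3472716 fragments assigned to genes, so the lower limit of 3 counts corresponded to 0.673 to 1.24 CPM after TMM scaling. This floor covers counting error only. The ribosomal precursor Rn45s took 22.2 to 32.4% of the counts with GSK-J4 and 45.8 to 48.1% with LPS + GSK-J4, and the TMM factors were 1.05 to 1.31 and 0.821 to 0.832. Scaling to library totals alone, without TMM, moved the median of all genes to -0.57 on the log2 scale. Replicate 3 stood apart in both groups. As a chi-square of their counts divided by its degrees of freedom, the difference was 2.12 and 2.32 between replicates 1 and 2 of the groups, 12.2 and 12.5 between GSK-J4 replicate 3 and the others of its group, and 5.81 and 5.88 for LPS + GSK-J4 replicate 3. GSK-J4 replicate 3 also held the 32.4% of Rn45s. Without replicate 3 of both groups, C5ar1 (log2 fold change 1.76, adjusted p = 5.50e-12), C3 (-0.64, 0.000229) and Cfp (-0.60, 0.00583) passed as before. Transcripts that mark microglia summed to 2850 to 2984 CPM with GSK-J4 and to 2238 to 2389 CPM with LPS + GSK-J4, and 4 of the 10 fell. For this and the marker counts below, the shares over all genes tested were 9.91% that fell and 13.7% that rose. The homeostatic markers P2ry12 and Tmem119 were low, at means of 13.2 and 5.01 CPM with GSK-J4. Astrocyte markers summed to 60.2 to 63.4 and 144 to 175 CPM (4 of 8 tested rose), oligodendrocyte lineage markers to 216 to 250 and 394 to 448 CPM (5 of 8 rose), and neuron markers to 21.0 to 26.0 and 54.1 to 63.6 CPM (4 of 4 rose). The astrocyte, oligodendrocyte lineage and neuron sums were thus higher in every LPS + GSK-J4 library, and the microglial sum was lower. The part of these transcripts in the results below was not tested. Fibroblast markers summed to 80.1 to 281 and 138 to 427 CPM (0 of 6 rose) and endothelial markers to 16.6 to 23.1 and 29.3 to 64.0 CPM (1 of 2 rose), with Cldn5 at 0 in every library. The most abundant markers were Gja1 for astrocytes, Mbp for the oligodendrocyte lineage, Map2 for neurons, Col3a1 for fibroblasts and Cdh5 for endothelial cells. In bulk RNA, more cells of a type and more RNA per cell cannot be told apart.

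C5ar1 encodes the C5a receptor, a G protein-coupled receptor that draws phagocytes toward sites of complement activation. The gene lies on mm10 chromosome 7, 16246743 to 16259540, and shares no read-length stretch with another gene. Fragments counted for C5ar1 numbered 266, 293 and 173 with GSK-J4 and 524, 599 and 610 with LPS + GSK-J4, with the replicates here and below in the order of their numbers. After scaling these were 62.8, 65.8 and 63.4 CPM, against 204.5, 228.6 and 251.9 CPM. Every LPS + GSK-J4 library was above every GSK-J4 library, and the GSK-J4 libraries lay close together. The log2 fold change was 1.83 (standard error 0.13, 95% interval 1.57 to 2.10, adjusted p = 2.39e-08). The sum of the microglial markers, as given above, was lower in the libraries where C5ar1 was higher. Of these 10 markers 4 fell, as did 9.91% of all genes tested. The part of microglial content in the C5ar1 level was not tested. The rise was called in all 15 alternative settings, with log2 fold changes from 1.27, with library totals alone, to 1.90. On the opposite strand of C5ar1, 0, 0 and 0 fragments were counted with GSK-J4 and 2, 3 and 6 with LPS + GSK-J4. Opposite-strand counts were 8, 18 and 4 against 6, 5 and 8 for C3ar1, and 7, 5 and 4 against 4, 1 and 3 for Cfb. The source of these few fragments was not tested.

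C3ar1 encodes the receptor for the peptide split from C3, and lies on chromosome 6, 122847138 to 122856161. It had 1155, 1307 and 718 fragments with GSK-J4 and 922, 899 and 750 with LPS + GSK-J4. The scaled levels were 272.5, 293.4 and 263.3 CPM and 359.8, 343.0 and 309.7 CPM. The groups did not overlap, but the difference did not pass the test. The log2 fold change was 0.29 (standard error 0.11, 95% interval 0.05 to 0.52, adjusted p = 0.0725), and -0.28 with library totals alone, so its direction rests on the scaling. Without LPS + GSK-J4 replicate 3, its lowest LPS + GSK-J4 library, the log2 fold change was 0.35 with an adjusted p of 0.0179. Leaving out replicate 3 of both groups gave 0.32 and 0.00698. Leaving out any 1 of the other libraries gave adjusted p values of 0.136 to 0.217, and the DESeq2 Wald test gave 0.179. In 11 of the 15 alternative settings the sign stayed positive and C3ar1 did not pass.

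The 2 receptors can be set against each other within a library, where scaling has no part. There were 0.230, 0.224 and 0.241 C5ar1 fragments per C3ar1 fragment with GSK-J4, and 0.568, 0.666 and 0.813 with LPS + GSK-J4. All LPS + GSK-J4 libraries were above all GSK-J4 libraries. The mean log2 ratio was 1.54 higher with LPS + GSK-J4 (2-sided exact permutation test, p = 0.1, below which a design of 3 against 3 cannot go). The other C5a receptor gene, C5ar2, whose values were seen before it was chosen, lies beside C5ar1 on chromosome 7, from 16234585 to 16244154. It was far lower, at 2.83, 3.37 and 2.57 CPM with GSK-J4 and 4.29, 5.72 and 3.72 CPM with LPS + GSK-J4. Its log2 fold change of 0.63 (standard error 0.37, 95% interval -0.15 to 1.41) did not pass the test (adjusted p = 0.248).

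**Figure D1:**
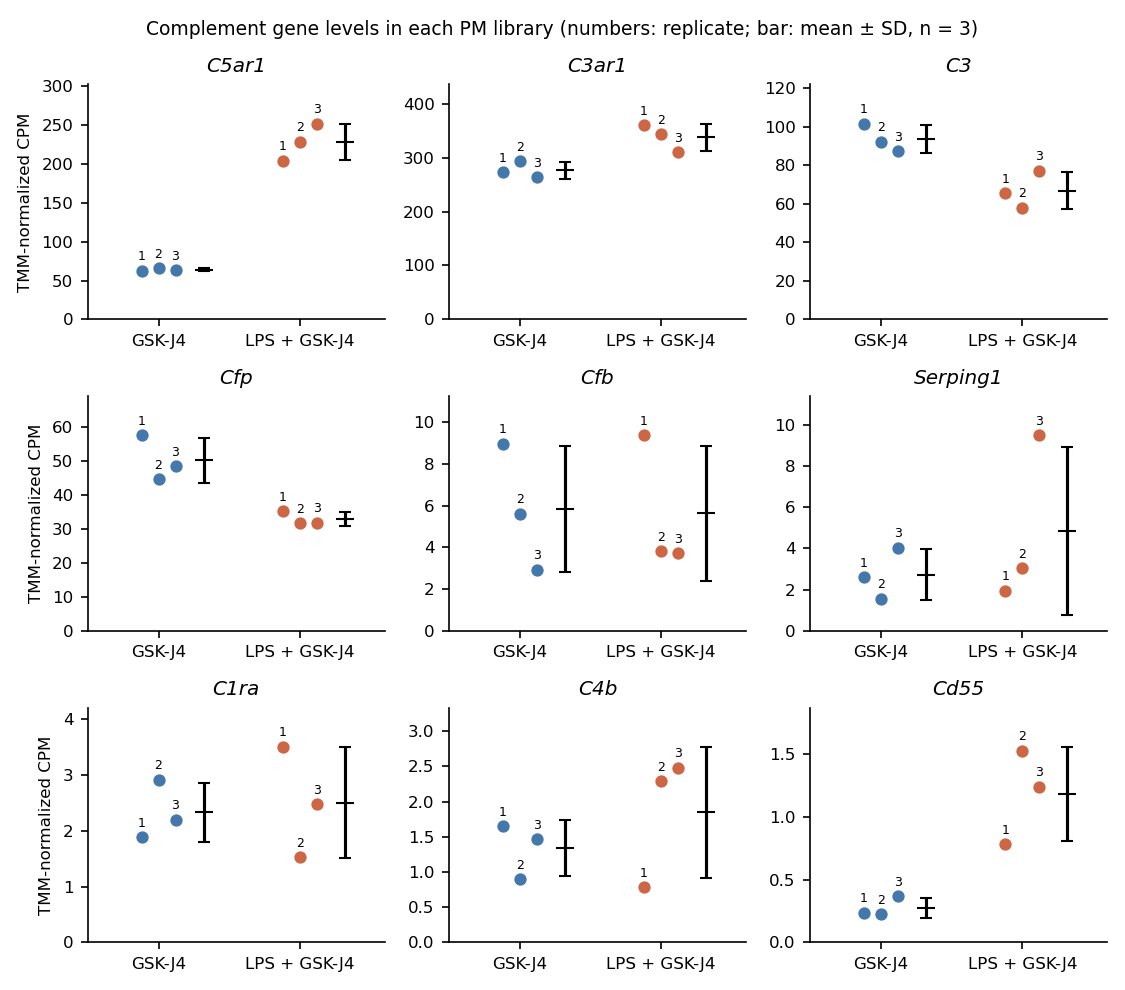
Each panel plots 1 complement gene, with the group on the horizontal axis and TMM-normalized CPM on the vertical axis, which starts at 0. Points are libraries with their replicate number and bars are the mean ± SD of 3 libraries. C5ar1 sits at 62.8 to 65.8 CPM with GSK-J4 and at 204.5 to 251.9 CPM with LPS + GSK-J4, while C3 and Cfp are lower in each LPS + GSK-J4 library, and Cfb, Serping1, C1ra and C4b overlap between the groups.

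C3 encodes the central component on which all activation pathways converge, and lies on chromosome 17, 57203970 to 57228136. Its counts were 431, 411 and 238 with GSK-J4 and 168, 152 and 187 with LPS + GSK-J4. These scaled to 101.7, 92.3 and 87.3 CPM and to 65.6, 58.0 and 77.2 CPM. Each LPS + GSK-J4 library was below each GSK-J4 library, with LPS + GSK-J4 replicate 3 nearest to the GSK-J4 range. C3 fell by 0.49 on the log2 scale (standard error 0.14, 95% interval -0.79 to -0.19, adjusted p = 0.0185). The call was lost without GSK-J4 replicate 1 (adjusted p = 0.0913), without GSK-J4 replicate 2 (0.0532) and without LPS + GSK-J4 replicate 2 (0.112), and the sign stayed negative in all 15 settings. With library totals alone the log2 fold change was -1.06.

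Cfp encodes properdin, which stabilizes the C3 convertase of the alternative pathway, and lies on chromosome X, 20925454 to 20931555. It was counted 244, 199 and 132 times with GSK-J4 and 90, 83 and 77 times with LPS + GSK-J4. The levels were 57.6, 44.7 and 48.4 CPM against 35.1, 31.7 and 31.8 CPM. The groups did not overlap, and the LPS + GSK-J4 libraries were the closer together. Cfp fell by 0.61 on the log2 scale (standard error 0.16, 95% interval -0.95 to -0.28, adjusted p = 0.0101). Without GSK-J4 replicate 1, the highest library, the adjusted p was 0.0754, and without LPS + GSK-J4 replicate 2 it was 0.05003, just above the threshold. With library totals alone the log2 fold change was -1.18.

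Within a library, the C3 fragments per C3ar1 fragment were 0.373, 0.314 and 0.331 with GSK-J4 and 0.182, 0.169 and 0.249 with LPS + GSK-J4. For Cfp the ratio to C3ar1 was 0.211, 0.152 and 0.184 against 0.0976, 0.0923 and 0.103. Both ratios were lower in every LPS + GSK-J4 library, by -0.78 and -0.89 in mean log2 ratio (exact permutation p = 0.1 for each). A ratio also holds any change in its denominator. The scaled C3ar1 level was higher in every LPS + GSK-J4 library (log2 fold change 0.29). C3 was also set against C1qa, a chain of C1q and, per kb of exon, the most abundant of the listed complement transcripts in each library. The C3 to C1qa ratio was 0.219, 0.194 and 0.170 with GSK-J4 and 0.189, 0.148 and 0.170 with LPS + GSK-J4, so that the groups overlapped. The difference of -0.20 in log2 ratio had an exact permutation p of 0.3. These 4 ratios were computed in all, with p values adjusted over the 4 by the Benjamini-Hochberg method of 0.133, 0.133, 0.133 and 0.3. The transcripts that mark microglia had a median log2 fold change of -0.45, and their part in the falls of C3 and Cfp was not tested.

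**Figure D2:**
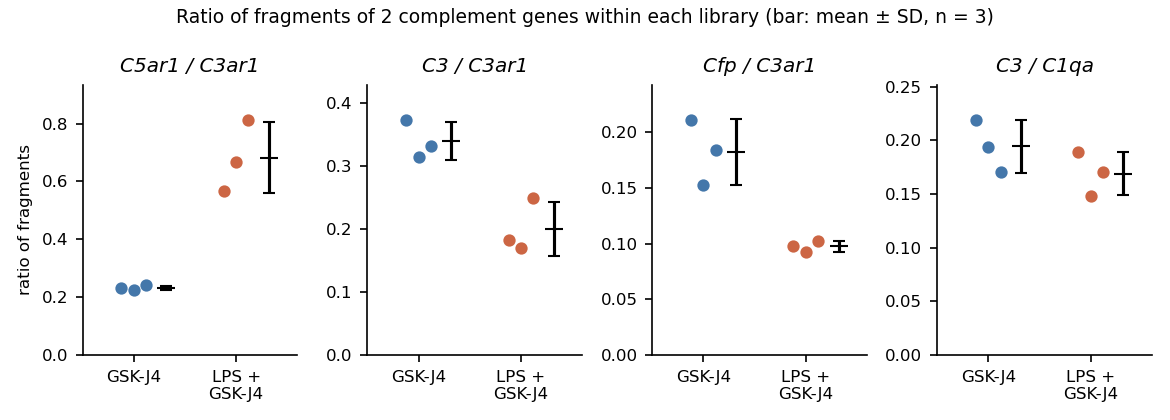
Each panel plots, for each library, the fragments of a complement gene divided by those of another gene of the same library, on an axis that starts at 0. Points are libraries, and bars are the mean ± SD of 3. C5ar1 per C3ar1 is higher in each LPS + GSK-J4 library, C3 and Cfp per C3ar1 are lower, and C3 per C1qa overlaps between the groups.

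Cfb encodes factor B, the protease of the alternative pathway C3 convertase, and lies on chromosome 17, 34856374 to 34862518. It had 38, 25 and 8 fragments with GSK-J4 and 24, 10 and 9 with LPS + GSK-J4, or 8.97, 5.61 and 2.93 CPM and 9.37, 3.82 and 3.72 CPM. The groups overlapped from end to end. In both of them replicate 1 was the highest. The log2 fold change was -0.10 (standard error 0.42, 95% interval -1.005 to 0.80, adjusted p = 0.893), and it was 0.33 without GSK-J4 replicate 1, 0.12 without LPS + GSK-J4 replicate 2 and 0.10 without LPS + GSK-J4 replicate 3. The 95% interval is wide, and changes of any size within it are not excluded. GENCODE lists a read-through gene, Gm20547, over Cfb, which shares 66.8% of its read-length stretches, but the count tables hold no row for it.

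Serping1 encodes the C1 inhibitor, which blocks the proteases of the classical and lectin pathways, and lies on chromosome 2, 84765387 to 84775444. Its counts were 11, 7 and 11 with GSK-J4 and 5, 8 and 23 with LPS + GSK-J4. These were 2.595, 1.57 and 4.03 CPM and 1.95, 3.05 and 9.50 CPM. A single library, LPS + GSK-J4 replicate 3, stood above the rest. The log2 fold change of 0.87 (standard error 0.54, 95% interval -0.27 to 2.01, adjusted p = 0.270) became -0.038 without that library. The fibroblast markers summed to 427 CPM in that library and to 138 and 241 CPM in LPS + GSK-J4 replicates 1 and 2. They summed to 281, 80.1 and 94.2 CPM in the GSK-J4 libraries, and their part in the level of Serping1 was not tested.

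The remaining 3 genes were at or near the limit of detection and did not pass the low-count filter. C4b, the classical pathway component cleaved by the C1 complex (chromosome 17, 34728380 to 34743882), had 7, 4 and 4 fragments with GSK-J4 and 2, 6 and 6 with LPS + GSK-J4. Its paralog C4a, with which it shares 14.98% of its read-length stretches, had 4, 7 and 3 against 2, 2 and 5. Neither gene parted the groups. C1ra, a protease of the C1 complex (chromosome 6, 124512405 to 124523443), had 8, 13 and 6 fragments against 9, 4 and 6. C1ra shares 35.7% of its stretches with C1rb or a related gene and may be undercounted, since only uniquely mapped fragments were counted. C1rb had 3, 1 and 1 fragments with GSK-J4 and 3, 0 and 1 with LPS + GSK-J4.

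Cd55, which encodes decay-accelerating factor, a membrane inhibitor of the C3 convertases (chromosome 1, 130439027 to 130462744), had 1, 1 and 1 fragments with GSK-J4 and 2, 4 and 3 with LPS + GSK-J4. All GSK-J4 libraries were under the limit of 3 counts and the LPS + GSK-J4 libraries were around it, so no fold change is given. Its paralog Cd55b was at 0 in all 6 libraries, and it shares 4.15% of the stretches of Cd55. When no filter on low counts was applied, the adjusted p was 0.691 for C4b, 0.9747 for C1ra and 0.226 for Cd55.

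Levels of different genes were compared as CPM per kb of exon. With GSK-J4 the order was C3ar1 at a mean of 64.2, Cfp at 28.9, C5ar1 at 24.9 and C3 at 18.2. The ranges of neighbours in this order did not overlap. Those of Cfp and C5ar1 were barely apart, with the lowest Cfp value at 25.73 and the highest C5ar1 value at 25.59. Exon lengths are from GENCODE, while the annotation used for counting is not given. Cfb (2.07), Serping1 (1.18) and C1ra (0.783) followed, with ranges that overlapped from each to the next. C4b (0.235) and Cd55 (0.0568) were the lowest. With LPS + GSK-J4, C5ar1 moved to the head of the order at a mean of 88.8 CPM per kb. Its range of 79.6 to 98.0 overlapped that of C3ar1, at a mean of 78.4 and a range of 71.9 to 83.6. Cfp (18.9) and C3 (13.0) stayed below both receptors, with ranges apart from each other. The ranges of Serping1 (2.08) and Cfb (1.99) overlapped, as did those of C4b (0.325) and Cd55 (0.244). The mean of C1ra (0.840) lay between these pairs. Its range of 0.512 to 1.18 overlapped that of Serping1, from 0.839 to 4.09. The receptors were thus the most abundant of the 9 transcripts per length in LPS + GSK-J4.

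**Figure D3:**
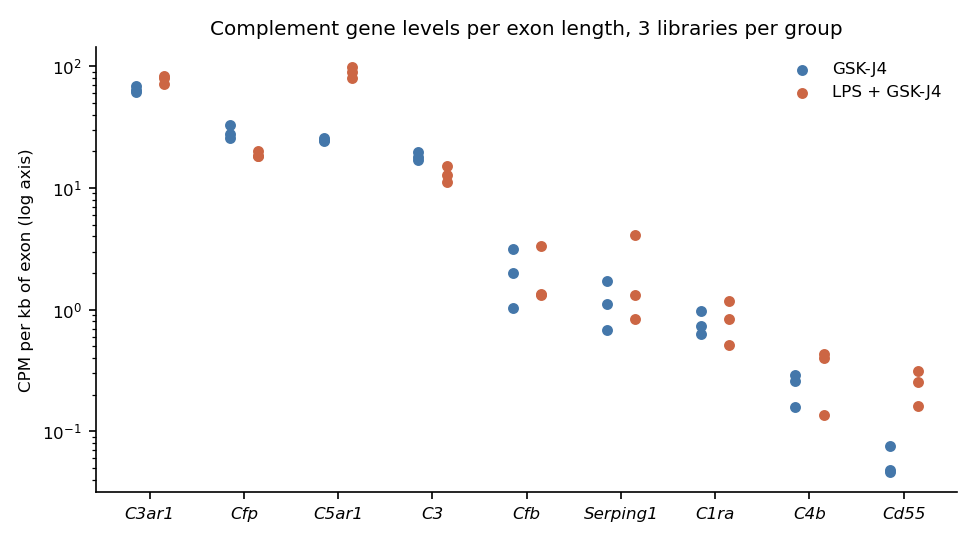
Levels of the 9 genes are plotted in CPM per kb of exon on a log axis, in the order of their means with GSK-J4. Each point is 1 library, with 3 per group. C5ar1 moves from below Cfp (24.9 against 28.9) to the level of C3ar1 (88.8 against 78.4) with LPS + GSK-J4.

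The rest of the pathway was taken from lists of 51 complement genes, of which 48 matched a row and 15 were tested. Among these 15, 3 rose, 3 fell and 9 did not pass, with a median log2 fold change of -0.18. Of all genes tested, 13.7% rose, 9.91% fell and 2.95% had a large increase, and no test was run over the list. Clusterin (Clu), an extracellular chaperone that also restrains the terminal complex, was at 18.6, 26.5 and 29.7 CPM with GSK-J4 and 70.3, 67.9 and 100.8 CPM with LPS + GSK-J4. It was the only large change of the 15, at 1.69 on the log2 scale (standard error 0.20, adjusted p = 1.10e-05), which was 1.49, just under the threshold, without LPS + GSK-J4 replicate 3. Clu is also a transcript of astrocytes, whose markers were higher with LPS + GSK-J4 as given above, and their part in it was not tested.

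Among the receptors for fragments of C3 and for C1q, Itgax, the alpha chain of complement receptor 4, rose by 0.81 on the log2 scale (standard error 0.16, adjusted p = 0.00107), a call that was lost with library totals alone (0.25). Its levels were 31.9, 29.9 and 36.3 CPM with GSK-J4 and 50.35, 58.0 and 63.2 CPM with LPS + GSK-J4. Cd93, a membrane protein first described as a C1q receptor, was at 109.2, 143.4 and 114.8 CPM against 45.7, 49.6 and 59.05 CPM. It fell by 1.25 on the log2 scale (standard error 0.15, adjusted p = 1.47e-05), and the groups were well apart. C1qbp, a mitochondrial protein that can bind C1q, had a log2 fold change of 0.43 (adjusted p = 0.0441), -0.13 with library totals alone. Its call was lost when any 1 library other than LPS + GSK-J4 replicate 3 was left out (adjusted p up to 0.193).

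Of the recognition molecules, the ficolin gene Fcna, a lectin pathway starter, fell by 0.79 on the log2 scale (standard error 0.17, adjusted p = 0.00238). Its levels were 39.2, 40.0 and 37.0 CPM with GSK-J4 and 20.7, 21.8 and 24.8 CPM with LPS + GSK-J4. Of the 3 C1q chains, C1qc fell by 0.35 (standard error 0.12, adjusted p = 0.0494), a call at the edge of the threshold that was lost when any 1 library other than LPS + GSK-J4 replicate 3 was left out (adjusted p up to 0.182). Of the other 2 chains, C1qa had a log2 fold change of -0.28 (adjusted p = 0.0931) and C1qb of -0.18 (0.292). C1qa passed in 6 of 15 alternative settings, and in all of them it was negative.

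The alternative and terminal pathway list had no gene that passed the low-count filter. Of its 8 matched genes, 5 were at 0 in all libraries, and the 8 summed to at most 1.65 CPM in any library. Over all 48 genes, 33 were not tested and 13 were at 0 throughout. Fragments of C5 (Hc), the source of the C5ar1 ligand, numbered 4 over the 6 libraries together, a gene named after its values were seen.

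**Figure D4:**
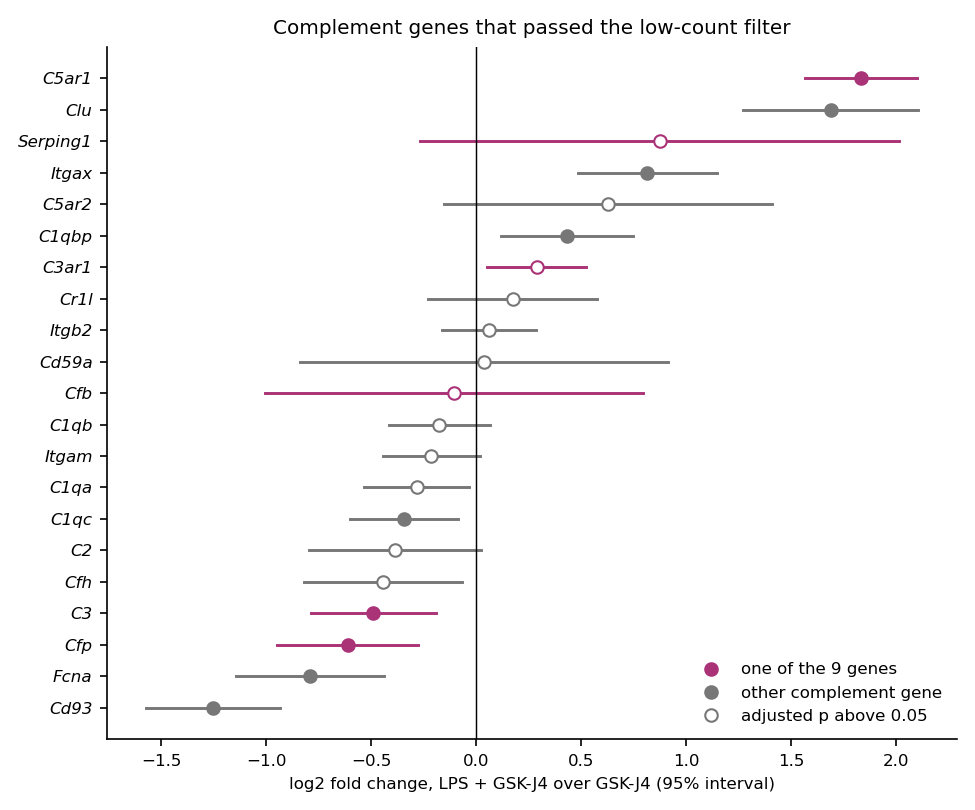
Log2 fold changes of LPS + GSK-J4 over GSK-J4 are plotted with 95% intervals for the 21 complement genes that passed the low-count filter, ordered by size. Filled points have an adjusted p of at most 0.05, and purple marks the 6 of the 9 genes that were tested. C5ar1 (1.83) and Clu (1.69) are farthest to the right, and Cd93 (-1.25) and Fcna (-0.79) farthest to the left. The points of C3ar1, C1qbp, Cr1l, Itgb2 and Cd59a lie above 0. Their values with library totals alone, which are not plotted, were below 0.

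The 2 tested genes outside the complement lists whose levels ran most like those of C5ar1 over the 6 libraries were Egr2 and Clic4. The measure was the root mean square distance in mean-centred log2(CPM + 1), which was 0.0263 for Egr2 and 0.107 for Clic4. Their log2 fold changes were 1.86 and 1.87. Since both genes were picked by this distance over the libraries of both groups, fold changes near that of C5ar1 follow from the choice.

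**Figure D5:**
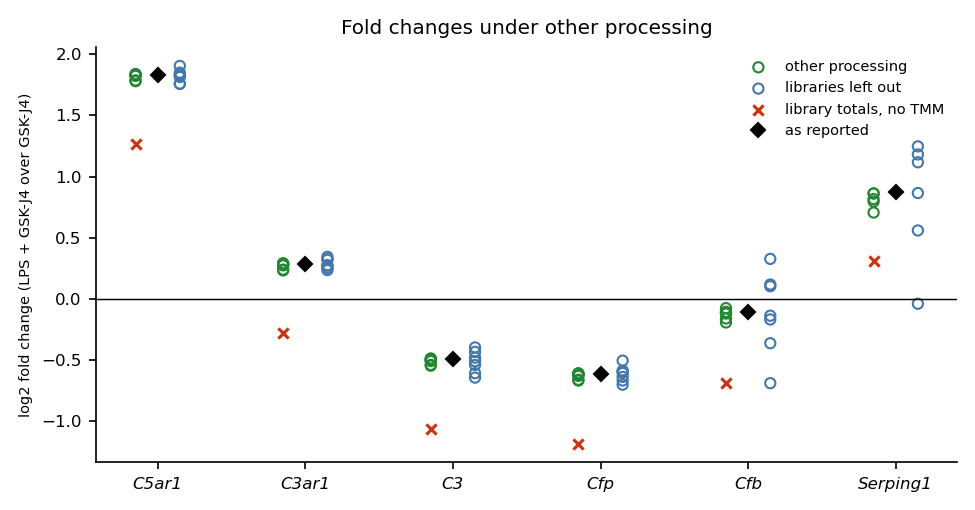
The vertical axis is the log2 fold change of LPS + GSK-J4 over GSK-J4 for the 6 tested genes of the 9, with the reported value as a diamond. Open circles are other processing settings and fits with libraries left out, and crosses are library totals without TMM. C5ar1 stays between 1.27 and 1.90 and C3 and Cfp stay below 0, while C3ar1 turns to -0.28 with library totals, Cfb spans -0.69 to 0.33 and Serping1 spans -0.038 to 1.25.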

How the data were processed

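RNA-seq libraries of PM were compared for 2 groups, 3 treated with GSK-J4 and 3 with LPS + GSK-J4, taken from the titles in the labels. RNA was depleted of rRNA and sequenced from both ends with a directional kit. The authors trimmed the reads with Trimmomatic (0.33), aligned them to mm10 with STAR (2.5.1) and deposited raw counts per gene, without normalization, in columns for either and for each strand. The tool versions are from the submitters' processing notes. The gene annotation used for counting is not given in the sources used here. The reverse-strand column was used, and the first 4 lines of each file, tallies of unassigned fragments, were left out. STAR counts only uniquely mapped fragments that overlap a single gene.

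Tests were run with edgeR 4.0.16 and limma 3.58.1 under R 4.3.3, with TMM, filterByExpr (minimum count 10, minimum total 15) and the robust quasi-likelihood test without covariates, with p values adjusted by the Benjamini-Hochberg method over 10133 genes. DESeq2 1.42.0, the tool of the study, was an alternative, with unstranded counts, DESeq2 size factors, library totals, other low-count filters, removal of ribosomal features, a replicate block and left-out libraries. Leaving out replicate 3 of both groups and the ratios of fragments were added after the data were seen. The common biological coefficient of variation was 0.133. Levels are CPM, with SD over 3 libraries. Positions and exon lengths are from GENCODE M21 on mm10, and stretches of 101 bases were matched between transcripts. Figures were drawn with matplotlib 3.10.9.

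All 9 genes were named. Of the other complement lists, genes with a large change, up to 3 per list with the smallest adjusted p and paralogs of the 9 were named, then the 2 genes most like each of the 9 that changed largely, and the most abundant marker of each cell type list, apart from 1 that is not reported here. The 9 genes and the lists were chosen with earlier results of these data known.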

Additional observations from a re-analysis of the deposited data

How the results depend on the processing

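Over all genes, scaling by library totals alone gave 573 genes that rose, 5019 that fell, 124 large increases and 354 large decreases, against 1386, 1004, 299 and 82, with the median of all genes at -0.57. At least 10 counts in every library left 176 large increases. Leaving out 1 library gave 658 to 1108 genes that fell. Of the 9 complement genes, 2 rose with the replicate block and 2 without replicate 3 of both groups, against 1, C3ar1 being the addition (adjusted p = 0.01005 and 0.00698). With library totals alone 0 had a large increase, since C5ar1 was at 1.27. Leaving out 1 library gave 1 to 2 that rose and 0 to 2 that fell. C3ar1 was -0.28 with library totals alone. When 1 library was left out, Cfb ranged from -0.69 to 0.33 and Serping1 from -0.038 to 1.25. Of the other complement genes, library totals alone gave 1 that rose, 9 that fell, 0 large increases and 1 large decrease, and 6 fell without a low-count filter, 5 with the replicate block and 5 without replicate 3 of both groups. Leaving out 1 library gave 0 to 1 large increases. With library totals alone the log2 fold change was -0.54 for Cd59a, -0.39 for Cr1l, -0.50 for Itgb2 and -0.13 for C1qbp. Cd59a was -0.016 without a low-count filter, and ranged from -0.16 to 0.31 when 1 library was left out. The cause was not tested.

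The shared replicate numbers are only numbers in the labels. Deviations of same-numbered libraries had r from -0.01 to 0.31 and those of other pairs from -0.30 to 0.25, and 3 of 6 libraries correlated best with their own number. With the replicate block C5ar1, C3 and Cfp kept their calls.

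Depth limits C4b, C1ra and Cd55, which had 29, 46 and 12 fragments over 6 libraries. Cfb and Serping1 had intervals wider than 1 log2 unit, and the part of depth in that width was not tested.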
